A study of Homo sapiens with 18 samples.

Results

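RNA levels of 10 genes that encode feedback inhibitors of the ERK pathway were followed in PC9, a human lung adenocarcinoma line whose growth depends on the receptor tyrosine kinase EGFR. The genes were taken by name, but they were chosen with earlier results of these data known. They are the dual-specificity phosphatases DUSP4, DUSP5, DUSP6 and DUSP7, the Sprouty genes SPRY1, SPRY2 and SPRY4, and the Sprouty-related genes SPRED1, SPRED2 and SPRED3. All 10 were found among the 30727 gene identifiers of the table, and all 10 passed the filter on low counts. RNA was sequenced from 18 libraries in 6 groups of 3, named here by group and by the replicate letters a, b and c. Parental_DMSO cells received the solvent DMSO only. Erlotinib_24h cells had been kept for 24 hours with 1 µM erlotinib, which inhibits EGFR. DTP cells, drug-tolerant persisters, were those alive after 8 days in 1 µM erlotinib, with medium and drug renewed every 3 days. Carboplatin_72h cells were exposed to 50 µM carboplatin, a platinum drug that crosslinks DNA, for 72 hours. The groups parental_TSA and DTP_TSA were parental cells and persisters exposed for 5 hours to 50 nM trichostatin A (TSA), which inhibits histone deacetylases. The titles of DTP_TSA do not state whether erlotinib was present during these 5 hours. What part this has in the TSA comparisons was not tested. All groups are the same line with no engineered change. Sorting by ALDH activity is described in the treatment text for DTP but in no title, and the DTP libraries are taken to be from unsorted cells. How long after the last change of medium the cells were collected is not given in the sources used here. Whether replicates were separate cultures is not stated either, so the spread behind the p-values, which is that between these libraries, may be technical.

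Between 32139343 and 128293531 reads per library were counted to genes, and at least 68775700 in every library but DTP_TSA a. That library stood apart: it held 99.9 spike-in reads per 100 gene reads, against 0.321 to 0.786 in the others, and its highest Pearson correlation with a library of its group was 0.939, where DTP_TSA b and c reached 0.995. Parental_TSA a stood somewhat apart, at 0.985 at most. Members called after TSA are therefore also given without the library of their group that stood apart. Summed lung epithelial markers ran from 4184 to 8999 CPM (counts scaled to an equal total of gene reads) over the 18 libraries. The lowest sum was that of a carboplatin_72h library. Group means were lowest in DTP_TSA (4367 CPM) and highest in erlotinib_24h (8928 CPM). KRT8 and KRT7 were in the lead, and 2 or 3 of 10 markers were under 1 CPM in each group. In parental_DMSO, NKX2-1 was at 0.0640 and NAPSA at 0.0954 CPM, and SFTPB did not pass the filter on low counts. Of 8 fibroblast markers, 7 were under 1 CPM in every group, and nearly all of the sum was COL1A1, at 4.66 CPM in parental_DMSO, 18.9 in erlotinib_24h and 26.0 in DTP; COL3A1, DCN and LUM were at 0 in parental_DMSO. Of 8 immune markers, 6 or 7 were under 1 CPM in each group and CD68 made up nearly all of the sum, from 23.2 to 71.1 CPM. What part these shifts have in the results was not tested. In bulk RNA, fewer cells that express a gene and less of its RNA per cell cannot be told apart. For persisters, a change within cells and the loss of cells over 8 days cannot be told apart either.

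As background, EGFR signals through RAS, RAF and MEK to the kinases ERK1 and ERK2, and active ERK switches on genes that dampen the same pathway. DUSP6 and DUSP7 are phosphatases that remove the activating phosphates from ERK in the cytoplasm, while DUSP4 and DUSP5 act in the nucleus. Sprouty proteins act between the receptor and RAF, and SPRED proteins bring the RAS-inactivating protein neurofibromin to the membrane. Because their transcription follows ERK activity, RNA of DUSP6 and SPRY4 is widely used as a readout of the pathway, and these genes usually fall when EGFR is blocked in cells that depend on it.

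Promoter sequence is shown for members with different courses under erlotinib, described further on: SPRY1, which kept falling, SPRY2, which ended above the parental level, and DUSP7, which came part of the way back. Each line gives the 250 bases before an annotated start of the gene, 5′ to 3′ on the gene's strand, from RefSeq (GRCh38.p14). The SPRY1 window is chr4:123396545-123396794 on the plus strand, the SPRY2 window chr13:80341127-80341376 on the minus strand and the DUSP7 window chr3:52056572-52056821 on the minus strand. Capitals mark a match to the searched ETS motif CCGGAA.
SPRY1: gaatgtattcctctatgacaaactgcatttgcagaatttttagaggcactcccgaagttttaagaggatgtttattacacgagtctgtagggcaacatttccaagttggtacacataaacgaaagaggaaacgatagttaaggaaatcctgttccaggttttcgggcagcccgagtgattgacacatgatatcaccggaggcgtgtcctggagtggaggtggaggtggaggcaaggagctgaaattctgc
SPRY2: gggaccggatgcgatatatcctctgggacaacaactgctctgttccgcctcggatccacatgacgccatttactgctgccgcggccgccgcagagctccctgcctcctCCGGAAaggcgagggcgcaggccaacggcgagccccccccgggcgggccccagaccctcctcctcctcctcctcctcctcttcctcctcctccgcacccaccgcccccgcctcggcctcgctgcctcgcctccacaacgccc
DUSP7: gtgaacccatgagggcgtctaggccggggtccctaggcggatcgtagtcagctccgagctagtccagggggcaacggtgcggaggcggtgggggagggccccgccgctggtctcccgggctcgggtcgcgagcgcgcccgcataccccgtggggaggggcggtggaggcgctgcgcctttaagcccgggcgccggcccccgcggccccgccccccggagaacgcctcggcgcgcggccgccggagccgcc
The SPRY2 window held CCGGAA 142 to 137 bases before the start, and the other windows shown held none of the motifs searched. These were the ETS motif CCGGAA, the AP-1 motif TGANTCA, the CRE motif TGACGTCA and the CArG box, each on both strands. Among 35116 promoter windows of the same length, 14.5% held the ETS motif, 6.57% AP-1, 1.65% CRE and 1.16% the CArG box. The RefSeq table gave 13 windows for 8 of the 10 members. Besides SPRY2, a match was found in a further SPRY1 window (ETS, 67 to 62 bases before the start) and in a SPRED3 window (AP-1, TGACTCA, 60 to 54 bases before the start). A match describes these letters only.

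After 24 hours of erlotinib, 9 of the 10 feedback inhibitors had fallen and none was called higher, with the deepest losses in DUSP6 and SPRY4. SPRED3 missed the threshold and was called higher in some of the alternatives. After 8 days, 8 members were still below the parental level and 2 were above it. The direct comparison of both time points separated the members into courses. DUSP4, DUSP6, DUSP7, SPRY4, SPRED1 and SPRED2 came part of the way back, DUSP5 and SPRY1 fell further, and SPRY2 rose beyond the parental level. Among all 17641 genes tested, 32.7% were called lower and 36.6% higher at 24 hours against parental_DMSO. For DTP against parental_DMSO the shares were 27.8% lower and 31.0% higher, and for DTP against erlotinib_24h 24.8% lower and 30.5% higher, where 7 members were higher and 2 lower. The members' median log2 fold change was -2.68 at 24 hours, against 0.11 for all genes. It was -1.41 in DTP against parental_DMSO, where all genes had 0.06, and 1.53 in DTP against erlotinib_24h, where all genes had 0.03. Calls are from edgeR's quasi-likelihood test at a Benjamini-Hochberg adjusted p under 0.05 over all genes. Where groups are said not to overlap, this describes their libraries only, since the share of all genes without overlap is not given. The comparisons share their parental or 24-hour libraries, so their values are given side by side for each member.

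**Figure D1:**
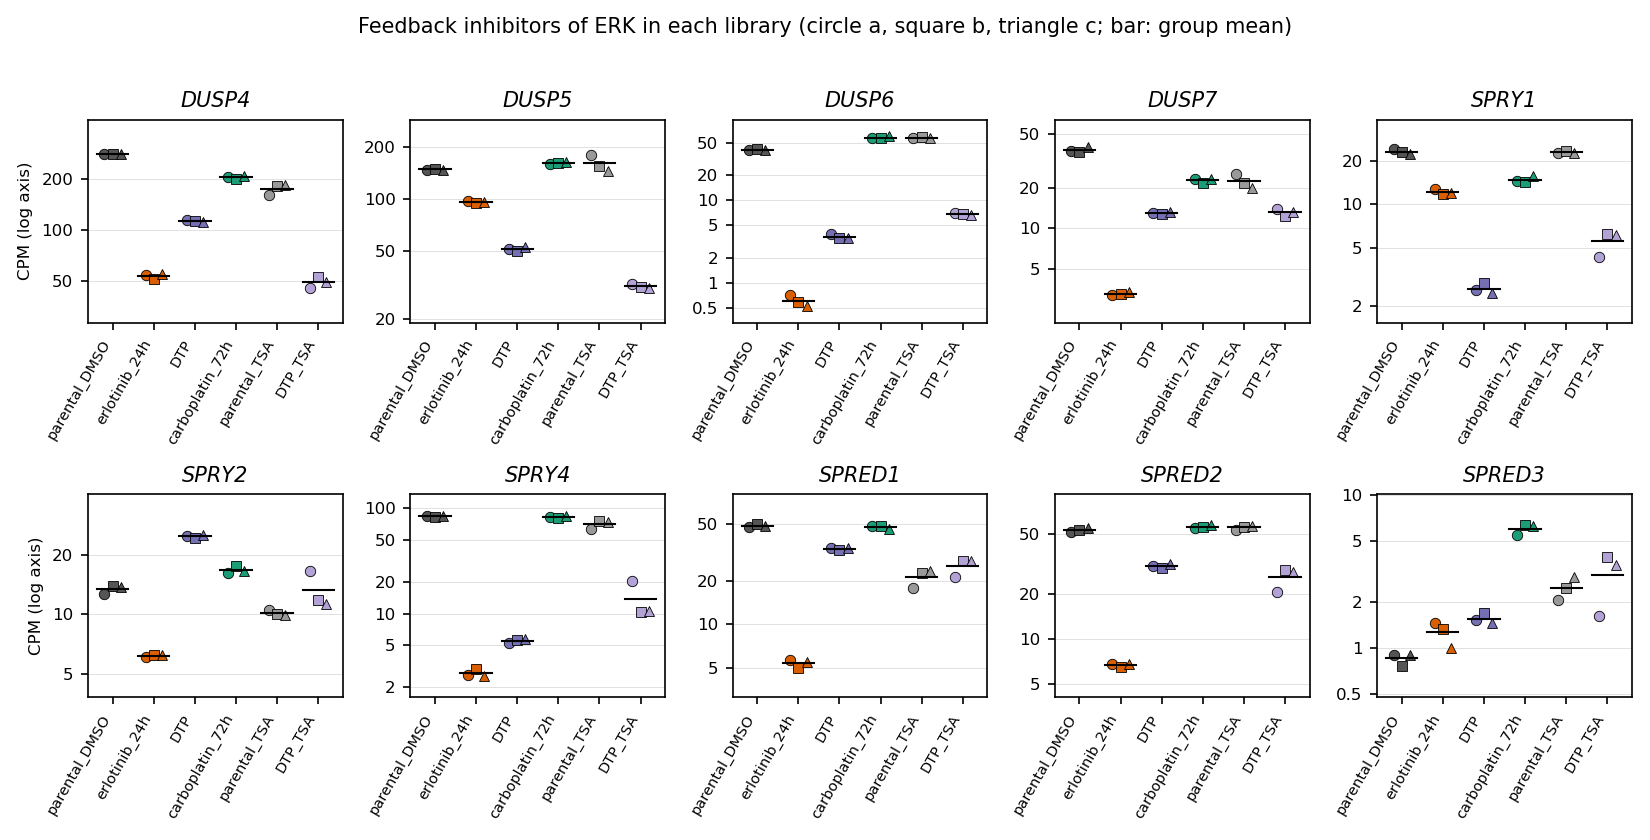
Level of each feedback inhibitor in every library, in CPM on a log axis that differs between panels; points are the 18 libraries by group, with symbols for replicate letters, and bars are group means. DUSP6 ran from 0.525 to 0.715 CPM in the 24-hour libraries against 40.2 to 41.5 in parental_DMSO, and the DTP_TSA library a lies apart from its mates for SPRY2, SPRY4 and SPRED3.

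DUSP6, the cytoplasmic ERK phosphatase, had the deepest loss of the members. Its level was 41.0, 41.5 and 40.2 CPM in parental_DMSO a, b and c, 0.715, 0.578 and 0.525 CPM in erlotinib_24h, and 3.91, 3.49 and 3.49 CPM in DTP. The 3 groups did not overlap, and the 24-hour values rested on 58, 52 and 41 reads. The log2 fold change was -6.07 ± 0.09 (SE) at 24 hours, which is 67.3-fold lower (adjusted p = 5.91e-18), and only 28 of the 17641 genes fell more. In DTP it was -3.49 ± 0.08, or 11.2-fold lower than parental_DMSO (adjusted p = 9.03e-16), and 5.99-fold above the 24-hour level (adjusted p = 5.34e-13). As a share of the parental mean, DUSP6 went from 1.48% ± 0.239 (SD, n = 3) at 24 hours to 8.88% ± 0.595 in DTP, so 7.51% of the lost level had been regained. Exons of DUSP6 overlap an antisense gene, AC024909.2, in GENCODE v29, and whether strand was used in the counting is not given in the sources used here.

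DUSP7, the closest relative of DUSP6 among the members, lost less and regained a larger share of its loss, though DUSP6 rose by the larger fold from 24 hours to DTP. Its level was 37.3, 36.6 and 40.0 CPM in parental_DMSO, 3.20, 3.25 and 3.38 CPM at 24 hours, and 12.9, 12.8 and 13.2 CPM in DTP, again without overlap. The log2 fold change was -3.54 ± 0.09 at 24 hours (adjusted p = 3.36e-15) and -1.55 ± 0.08 in DTP (adjusted p = 7.93e-11). DTP stood 3.96-fold above erlotinib_24h (adjusted p = 8.26e-12), from 8.62% to 34.1% of the parental mean, and 27.9% of the loss had been regained.

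The nuclear phosphatases DUSP4 and DUSP5 took opposite courses between 24 hours and 8 days. DUSP4 was at 279, 279 and 279 CPM in parental_DMSO, at 54.8, 51.7 and 55.0 CPM at 24 hours and at 114, 114 and 112 CPM in DTP. It was lowest at 24 hours, and the groups did not overlap. Its log2 fold change was -2.37 ± 0.06 at 24 hours (adjusted p = 3.31e-15), -1.30 ± 0.06 in DTP (adjusted p = 9.97e-12) and 1.08 ± 0.06 between these (adjusted p = 1.29e-10). DUSP5 was at 148, 150.1 and 147 CPM in parental_DMSO, at 97.6, 94.9 and 96.2 CPM at 24 hours and at 51.5, 50.1 and 53.0 CPM in DTP. Every DTP library lay below every 24-hour library, which in turn lay below every parental one. The log2 fold change of DUSP5 was -0.62 ± 0.06 at 24 hours (adjusted p = 8.75e-08), -1.53 ± 0.06 in DTP (adjusted p = 2.1e-12) and -0.90 ± 0.06 from 24 hours to DTP (adjusted p = 1.85e-09). DUSP5 thus kept 64.9% of the parental mean at 24 hours, the highest share among the members that fell, and 34.7% in DTP, close to the 34.1% of DUSP7. That small gap between DUSP5 and DUSP7 was not tested.

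The Sprouty genes took 3 different courses. SPRY4 was at 83.7, 82.9 and 84.0 CPM in parental_DMSO, at 2.64, 2.99 and 2.56 CPM at 24 hours and at 5.27, 5.63 and 5.73 CPM in DTP. It was very low at both times, with the DTP libraries all above the 24-hour ones. Its log2 fold change was -4.93 ± 0.21 at 24 hours, 30.5-fold lower (adjusted p = 1.3e-12), and 59 genes fell more. In DTP it was -3.91 ± 0.20, 15.1-fold lower than parental_DMSO (adjusted p = 2.83e-11). The 2.03-fold difference between DTP and erlotinib_24h passed the test (adjusted p = 2.87e-04), but it amounted to 3.48% of the loss. SPRY4, at 6.64% of the parental mean, was the member with the lowest share in DTP.

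SPRY1 fell within 24 hours and fell further from 24 hours to DTP. Its level was 24.0, 23.1 and 22.1 CPM in parental_DMSO and 12.8, 11.8 and 12.0 CPM at 24 hours. In DTP it was 2.59, 2.86 and 2.45 CPM. The groups were stepwise lower without overlap. The log2 fold change was -0.92 ± 0.11 at 24 hours (adjusted p = 6.32e-07) and -3.13 ± 0.12 in DTP (adjusted p = 6.76e-13), with a further 4.62-fold loss from 24 hours to DTP (adjusted p = 4.98e-11). SPRY1 went from 52.7% to 11.4% of the parental mean, while DUSP6, SPRY4 and DUSP7, all deeper at 24 hours, had started back.

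SPRY2 ended above its starting level. It was at 12.7, 13.8 and 13.6 CPM in parental_DMSO, at 6.09, 6.24 and 6.24 CPM at 24 hours and at 24.7, 24.2 and 25.2 CPM in DTP. All DTP libraries lay above all parental ones. The log2 fold change was -1.11 ± 0.11 at 24 hours (adjusted p = 1.23e-07) and 0.88 ± 0.11 in DTP (adjusted p = 2.45e-06), and DTP was 3.99-fold above erlotinib_24h (adjusted p = 1.72e-10). SPRY1 and SPRY2 held 52.7% ± 2.36 and 46.3% ± 0.641 (SD, n = 3) of the parental mean at 24 hours, and 11.4% ± 0.893 and 185% ± 3.41 in DTP.

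SPRED1 and SPRED2, the partners of neurofibromin, fell deeply and returned furthest among the 6 members that came part of the way back. SPRED1 was at 47.5, 50.6 and 48.6 CPM in parental_DMSO, at 5.63, 4.96 and 5.44 CPM at 24 hours and at 34.0, 33.3 and 34.1 CPM in DTP. SPRED2 was at 51.4, 53.3 and 55.1 CPM, then 6.83, 6.55 and 6.83 CPM, then 30.4, 29.5 and 31.5 CPM. Both were lowest at 24 hours, and their DTP libraries lay between the other groups without overlap. The log2 fold change of SPRED1 was -3.19 ± 0.11 at 24 hours (adjusted p = 1.19e-13) and -0.53 ± 0.10 in DTP (adjusted p = 2.4e-04). That of SPRED2 was -2.98 ± 0.10 (adjusted p = 5.14e-14) and -0.81 ± 0.09 (adjusted p = 7.6e-07). SPRED1 regained 65.4% of its loss and SPRED2 51.0%, at 69.2% and 57.2% of the parental mean. With libraries scaled to the spike-in RNA and DTP_TSA a left out, the call of SPRED1 in DTP was lost (log2 fold change -0.44, adjusted p = 0.0896).

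SPRED3 was scarce throughout and did not fall. Its level was 0.900, 0.755 and 0.896 CPM in parental_DMSO, on 57 to 66 reads, 1.44, 1.33 and 0.999 CPM at 24 hours, and 1.51, 1.68 and 1.45 CPM in DTP. The 24-hour libraries all lay above the parental ones, but the log2 fold change of 0.57 ± 0.26 missed the threshold (adjusted p = 0.0637). It passed in 7 of the alternatives, among them DESeq2 (adjusted p = 0.0323) and the edgeR test on the compared groups alone (0.0132). With DTP_TSA a, a library of another group, left out of the shared fit, the adjusted p was 0.00613. Without replicate a of both TSA groups the adjusted p was 0.00254. In DTP the log2 fold change was 0.86 ± 0.26 (adjusted p = 0.00879), and DTP did not differ detectably from erlotinib_24h (0.30, 95% interval -0.24 to 0.83, adjusted p = 0.342). On the spike-in scale without DTP_TSA a that difference was called (0.75, adjusted p = 0.0192).

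**Figure D2:**
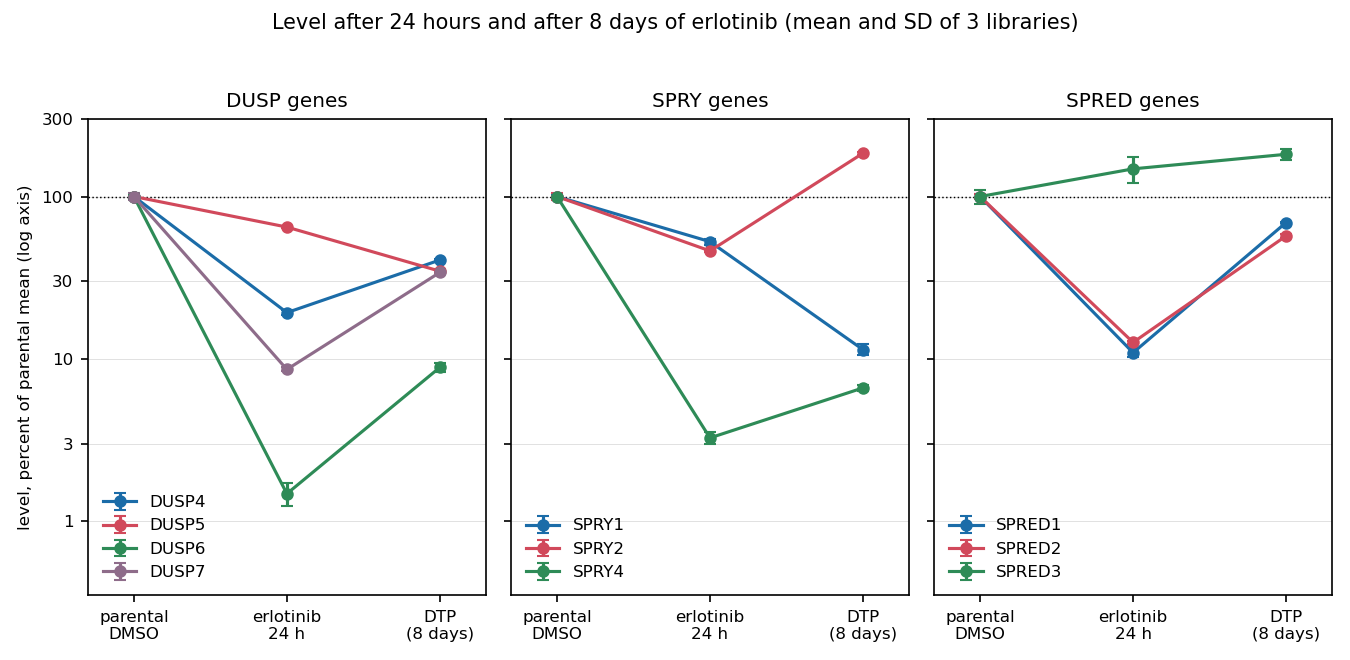
Level of each member as a percentage of its parental_DMSO mean (log axis) in parental_DMSO, erlotinib_24h and DTP, in panels by family; points are means and bars the SD of 3 libraries. DUSP6 and SPRY4 dropped to 1.48% and 3.27% at 24 hours, DUSP5 and SPRY1 were lower in DTP than at 24 hours, and SPRY2 reached 185% in DTP.

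The order of loss at 24 hours was therefore not the order of the level left after 8 days. By share of the parental mean, the order at 24 hours ran from DUSP6 (1.48%) through SPRY4 (3.27%), DUSP7 (8.62%), SPRED1 (10.9% ± 0.713), SPRED2 (12.6% ± 0.304), DUSP4 (19.3%), SPRY2 and SPRY1 to DUSP5. In DTP it ran from SPRY4 (6.64% ± 0.289) through DUSP6 (8.88% ± 0.595), SPRY1, DUSP7 (34.1% ± 0.43), DUSP5 (34.7% ± 0.984), DUSP4 (40.7%), SPRED2 and SPRED1 to SPRY2. DUSP7 and DUSP5 were within their SDs of each other in DTP. Members' shares were not tested against each other.

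Reads per length, from the longest GENCODE v29 transcript of each gene, allow levels to be set between genes. In parental_DMSO, DUSP5 at 58.0 ± 0.671 and DUSP4 at 50.4 ± 0.0517 CPM per kb were far above the others. SPRY4 (15.6), SPRED2 (13.0), DUSP7 (11.4), DUSP6 (9.30), SPRY1 (8.85), SPRED1 (6.28) and SPRY2 (4.94) followed, and SPRED3 came last at 0.178 CPM per kb. At 24 hours DUSP5 led, at 37.6 CPM per kb against 9.72 for DUSP4. In DTP the levels of DUSP4 and DUSP5 lay within their SDs of each other, at 20.5 ± 0.223 and 20.1 ± 0.571 CPM per kb, followed by SPRY2 at 9.12 and SPRED2 at 7.44. DUSP6 was then at 0.826 CPM per kb, below SPRY1 (1.01) and SPRY4 (1.04). Summed by family, the DUSP genes held 30.4% of their parental sum at 24 hours and 35.9% in DTP, the Sprouty genes 17.6% and 27.4%, and the SPRED genes 13.0% and 63.9%. The DUSP sum adds the rise of DUSP4 to the fall of DUSP5.

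The ERCC spike-in was dosed to the number of cells, and scaling to it shifts all genes of a group together. It moved the median log2 fold change of all genes from 0.11 to -0.25 at 24 hours, from 0.06 to 0.15 in DTP against parental_DMSO and from 0.03 to 0.48 in DTP against erlotinib_24h. On that scale DUSP6 held 1.16% of the parental mean at 24 hours and 9.46% in DTP, DUSP5 50.5% and 37.0%, SPRY1 41.1% and 12.2%, and SPRY2 36.0% and 197%. The directions of the 9 members that had fallen were the same as on the main scale.

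Other genes of the pathway were counted in lists, named by a rule that takes up to 3 genes per list and comparison by smallest p. Of 22 genes other than the members whose transcription is known to follow ERK, 18 fell and 1 rose at 24 hours, with a median log2 fold change of -1.76. The 3 taken by the rule were HBEGF, a ligand of EGFR (-5.10 ± 0.08, adjusted p = 7.43e-18), PHLDA1 (-4.88 ± 0.10, adjusted p = 2.12e-16) and the ETS factor ETV5 (-6.15 ± 0.15, adjusted p = 1.13e-15). In DTP 14 were below and 4 above parental_DMSO (median -0.81), and 14 were above and 5 below erlotinib_24h (median 1.26). ETV5 rose 4.91 ± 0.14 on the log2 scale from 24 hours to DTP (adjusted p = 3.97e-14) and HBEGF 3.18 ± 0.07 (adjusted p = 2.8e-15). ETV5 went from 61.9 CPM in parental_DMSO to 0.868 at 24 hours and 26.3 in DTP. PHLDA1 and HBEGF stayed below parental_DMSO in DTP, with log2 fold changes of -2.91 and -1.92.

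Relatives of the members, which are further MAP kinase phosphatases of the DUSP family and SPRY3, were mostly higher under erlotinib. Of 7, 6 rose and 1 fell at 24 hours, and 5 rose and 1 fell in DTP. The one that fell was DUSP2, a nuclear phosphatase of ERK, with -4.61 ± 0.19 at 24 hours (adjusted p = 7.55e-13). DUSP10, which acts on the stress kinases p38 and JNK, went from 14.9 CPM in parental_DMSO to 36.5 at 24 hours and 45.8 in DTP, with log2 fold changes of 1.29 ± 0.11 and 1.62 ± 0.11 (adjusted p = 9.41e-09 and 1.05e-09). DUSP1 rose by 0.71 ± 0.09 and 1.12 ± 0.09 (adjusted p = 1.35e-06 and 9.51e-09), and DUSP16 was higher in DTP by 1.14 ± 0.11 (adjusted p = 1.5e-07). Against erlotinib_24h, 5 of the 7 were higher in DTP and none lower.

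Brakes on EGFR and RAS of other kinds did not move as a block. Of 21, 10 fell and 4 rose at 24 hours, 7 fell and 6 rose in DTP, and 5 fell and 5 rose between these, with medians of -0.17, -0.16 and 0.06. CBLB, a ubiquitin ligase for receptors, rose from 14.1 CPM to 99.7 at 24 hours (2.83 ± 0.08, adjusted p = 5.02e-15) and stood at 87.9 in DTP (2.64 ± 0.08, adjusted p = 2.53e-14). LRIG1, which promotes the breakdown of EGFR family receptors, was at 5.77 CPM in parental_DMSO, 3.21 at 24 hours and 24.9 in DTP, a log2 rise of 2.95 ± 0.18 from 24 hours to DTP (adjusted p = 3.11e-10). PEA15, which holds ERK in the cytoplasm, was 1.51 ± 0.05 higher in DTP than at 24 hours (adjusted p = 6.96e-14). TOB1, an antiproliferative protein that ERK phosphorylates, was 1.86 ± 0.06 higher at 24 hours (adjusted p = 4.69e-14) and fell from there to DTP (-1.28 ± 0.06, adjusted p = 1.33e-11).

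Of 23 genes of the signalling chain itself, 9 fell and 10 rose at 24 hours, 10 fell and 7 rose in DTP against parental_DMSO, and 11 fell and 5 rose between these, with medians from -0.10 to -0.02. EGFR was at 1113 ± 70.0 CPM (SD, n = 3) in parental_DMSO, 483 ± 24.2 at 24 hours and 594 ± 26.4 in DTP. Its log2 fold change was -1.20 ± 0.32 (adjusted p = 0.0034) and -0.91 ± 0.32 (adjusted p = 0.0232). The difference between DTP and erlotinib_24h was not called (0.30 ± 0.32, adjusted p = 0.458). These SEs come from the fit over all 6 groups, in which EGFR varied most in parental_TSA (285 ± 191 CPM). A test on DTP and erlotinib_24h alone is not given for EGFR. ERBB3, a partner receptor of EGFR, was at 28.7, 169 and 57.7 CPM, with a rise of 2.56 ± 0.10 at 24 hours (adjusted p = 3.16e-13) and a log2 fold change of -1.55 ± 0.09 from there to DTP (adjusted p = 3.53e-10). ERBB2 and MAPK3, which encodes ERK1, rose by 1.78 ± 0.10 and 1.51 ± 0.08 at 24 hours (adjusted p = 4.43e-11 and 1.79e-11).

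**Figure D3:**
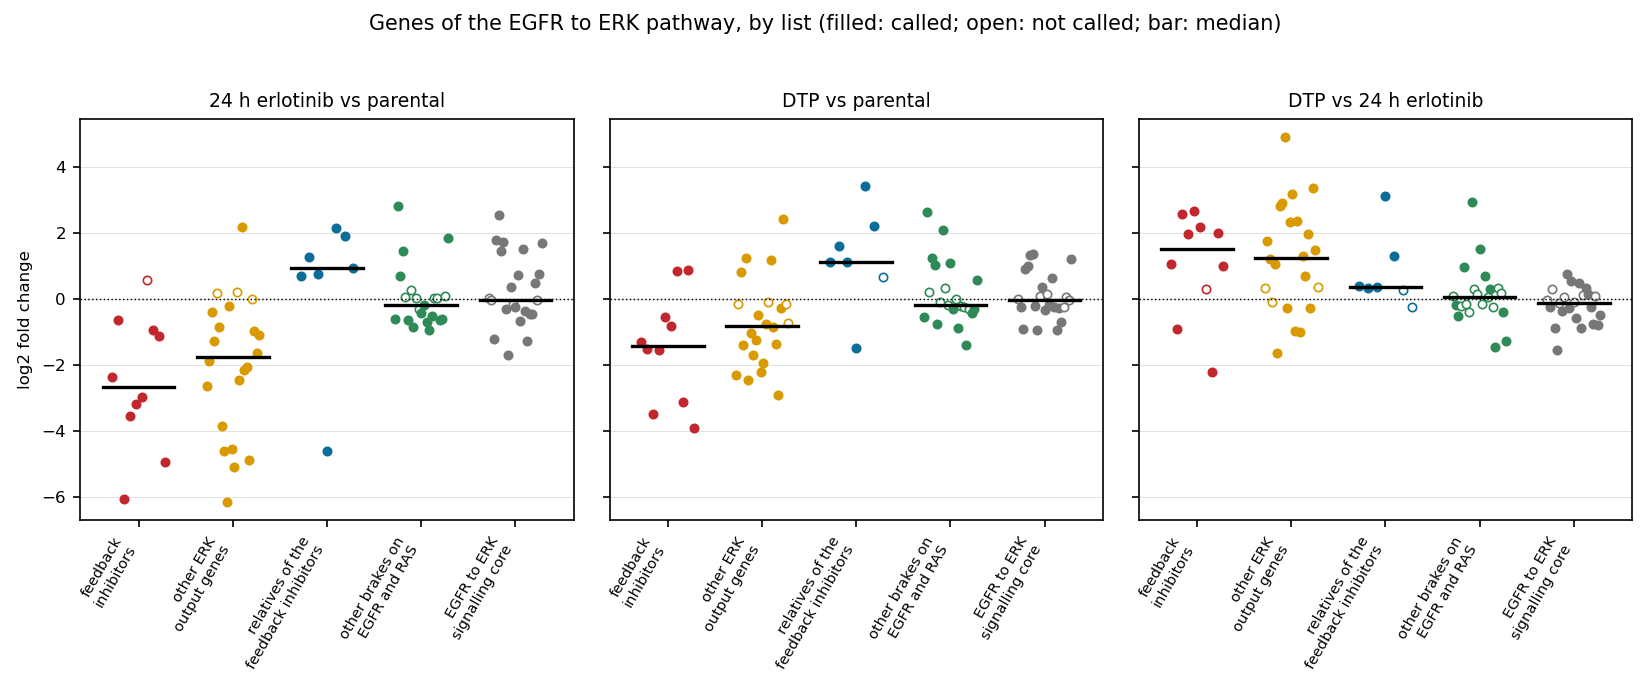
Log2 fold changes of the 10 feedback inhibitors and of 4 other lists of the pathway in 3 comparisons; points are genes, filled where called at an adjusted p under 0.05, and bars are list medians. The feedback inhibitors and the other ERK output genes have medians of -2.68 and -1.76 at 24 hours and of 1.53 and 1.26 in DTP against erlotinib_24h, and the other lists have medians between -0.17 and 1.14 in the 3 panels.

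Carboplatin, a drug that does not target EGFR, moved members in both directions, in shares near those of all genes. Against parental_DMSO, 3 members were lower and 3 higher, where 28.6% of all genes were called lower and 30.3% higher, and the members' median log2 fold change was 0.02. DUSP6 was higher, at 56.9, 56.7 and 59.5 CPM against 40.2 to 41.5 in parental_DMSO (0.50 ± 0.07, adjusted p = 9.06e-06). SPRED3 was 7.08-fold higher, at 5.46, 6.32 and 6.31 CPM (2.82 ± 0.26, adjusted p = 8.93e-08). Neither overlapped with parental_DMSO, and SPRED3 was at its highest level of the 6 groups. SPRY2 was higher by 0.32 ± 0.11 (adjusted p = 0.0187). That call was lost without the filter on low counts (adjusted p = 0.0856), without parental_DMSO a (0.107) and without carboplatin_72h b (0.0925). DUSP4 at 201 to 209 CPM (-0.44 ± 0.06, adjusted p = 6.81e-06), DUSP7 at 21.6 to 23.4 CPM (-0.74 ± 0.08, adjusted p = 7.59e-07) and SPRY1 at 14.3 to 15.7 CPM (-0.64 ± 0.11, adjusted p = 6.03e-05) were lower, each without overlap.

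None of these 3 carboplatin losses was called on the spike-in scale. Scaled to the spike-in RNA with DTP_TSA a left out, the median of all genes moved from 0.06 to 0.71 and 7 members were called higher and none lower. DUSP4 had a log2 fold change of 0.21 and SPRY1 of 0.00, and DUSP7 was no longer called (-0.10, adjusted p = 0.504). SPRY4, at 82.7, 80.0 and 84.4 CPM, overlapped with parental_DMSO (-0.02 ± 0.17, 95% interval -0.38 to 0.34, adjusted p = 0.931). SPRED1 and SPRED2 overlapped with it too, with intervals of -0.25 to 0.18 and -0.12 to 0.26. On the spike-in scale SPRY4 and SPRED1 had log2 fold changes of 0.62 and 0.62 and SPRED2 of 0.72. DUSP5 was at 159, 163 and 165 CPM, above the parental libraries, but was not called (0.13 ± 0.06, adjusted p = 0.0814). It was called in the comparison of the 2 groups alone (adjusted p = 0.00145) and without parental_TSA a (0.0168), without parental_TSA c (0.0408) or without replicate a of both TSA groups (0.00174). Of the 2 members with the deepest loss at 24 hours of erlotinib, SPRY4 overlapped with parental_DMSO after carboplatin and DUSP6 lay above it.

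In parental cells TSA lowered 4 members and raised 2, where 27.4% of all genes were called lower and 30.8% higher. SPRED1 had the deepest loss, at 17.8, 22.9 and 23.5 CPM against 47.5 to 50.6 in parental_DMSO (-1.19 ± 0.10, adjusted p = 4.15e-08). DUSP4 at 161, 181 and 185 CPM (-0.67 ± 0.06, adjusted p = 5.55e-08), DUSP7 at 25.4, 21.8 and 19.96 CPM (-0.76 ± 0.08, adjusted p = 5.74e-07) and SPRY2 at 10.5, 9.98 and 9.96 CPM (-0.40 ± 0.11, adjusted p = 0.00525) were lower too. DUSP6 rose to 57.6, 58.4 and 56.9 CPM (0.49 ± 0.07, adjusted p = 9.78e-06) and SPRED3 to 2.05, 2.47 and 2.88 CPM (1.54 ± 0.26, adjusted p = 7.16e-05). None of these 6 overlapped with parental_DMSO, though the share of all genes without overlap is not given. SPRED1 and DUSP4 were lowest in parental_TSA a. Without that library the log2 fold changes were -1.08 for SPRED1, -0.62 for DUSP4, -0.87 for DUSP7, -0.43 for SPRY2, 0.49 for DUSP6 and 1.65 for SPRED3, and all 6 were still called. DUSP5, SPRY1 and SPRED2 overlapped and were not called. SPRY4 lay below all parental libraries, at 63.0, 74.9 and 73.2 CPM, and was not called (-0.25 ± 0.17, adjusted p = 0.229). SPRY4 was called lower when DTP_TSA a was left out of the fit (-0.25, adjusted p = 0.00342) and without replicate a of both TSA groups (-0.17, adjusted p = 0.00188). DUSP5 was called higher without parental_TSA c (0.18, adjusted p = 0.0118).

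In persisters TSA lowered 5 members and raised 4, where 30.7% of all genes were called lower and 25.6% higher. The members that rose include 3 that were far below their parental level in DTP. DUSP6 lay between 3.49 and 3.91 CPM in DTP and was at 7.04, 6.81 and 6.65 CPM after TSA (0.91 ± 0.08, adjusted p = 2.75e-08), and SPRY1 lay between 2.45 and 2.86 CPM and was then at 4.36, 6.22 and 6.19 CPM (1.10 ± 0.11, adjusted p = 3.84e-07). SPRY4 lay between 5.27 and 5.73 CPM and was then at 20.3, 10.3 and 10.5 CPM (1.28 ± 0.19, adjusted p = 1.7e-05), with DTP_TSA a far above its mates. All 3 stayed well below parental_DMSO, at 16.7% ± 0.469, 24.2% ± 4.61 and 16.4% ± 6.88 (SD, n = 3) of its mean. The share of SPRY4 includes the high value of DTP_TSA a. Without DTP_TSA a the log2 fold changes were 0.88 for DUSP6, 1.23 for SPRY1 and 0.90 for SPRY4. SPRED3, at 1.61, 3.91 and 3.46 CPM, overlapped with DTP through DTP_TSA a (0.97 ± 0.25, adjusted p = 0.00305) and had 1.24 without that library.

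DUSP4 fell under TSA in persisters as well, to 45.8, 53.2 and 49.7 CPM (-1.19 ± 0.06, adjusted p = 7.38e-11), which is 17.8% ± 1.34 of the parental mean against 40.7% in DTP. DUSP5 fell to 32.2, 30.8 and 30.6 CPM (-0.72 ± 0.06, adjusted p = 4.27e-08), its lowest level in the 6 groups. SPRY2 fell to 16.6, 11.8 and 11.2 CPM (-0.91 ± 0.11, adjusted p = 2.27e-06), near the parental 12.7 to 13.8 CPM. Without DTP_TSA a, DUSP4 had -1.15, DUSP5 -0.75 and SPRY2 -1.11. SPRED1, at 21.5, 27.8 and 27.5 CPM, was lower by a smaller step (-0.40 ± 0.10, adjusted p = 0.00321, and -0.30 with adjusted p = 0.0113 without DTP_TSA a). Spike-in scaling without DTP_TSA a ended that call (-0.15, adjusted p = 0.662). The call of SPRED2 (-0.23 ± 0.09, adjusted p = 0.0376) depended on the setting, with DTP_TSA a at 20.7 CPM against 28.96 and 27.9 in its mates. Without DTP_TSA a, SPRED2 had -0.11 and was not called (adjusted p = 0.0961). Without replicate a of both TSA groups it had -0.11 as well and was called (adjusted p = 0.0367). Without DTP a or DTP c the adjusted p was 0.0662 and 0.0979. The call of SPRED2 was also lost under DESeq2 (adjusted p = 0.06), with its size factors (0.0735), with the filter of 1 CPM (0.18), with the compared groups alone (0.286) and on both spike-in scales. With DTP_TSA a left out, the spike-in scale turned its sign (0.043, adjusted p = 0.883). DUSP7 overlapped between the groups (0.03, 95% interval -0.15 to 0.21, adjusted p = 0.78).

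**Figure D4:**
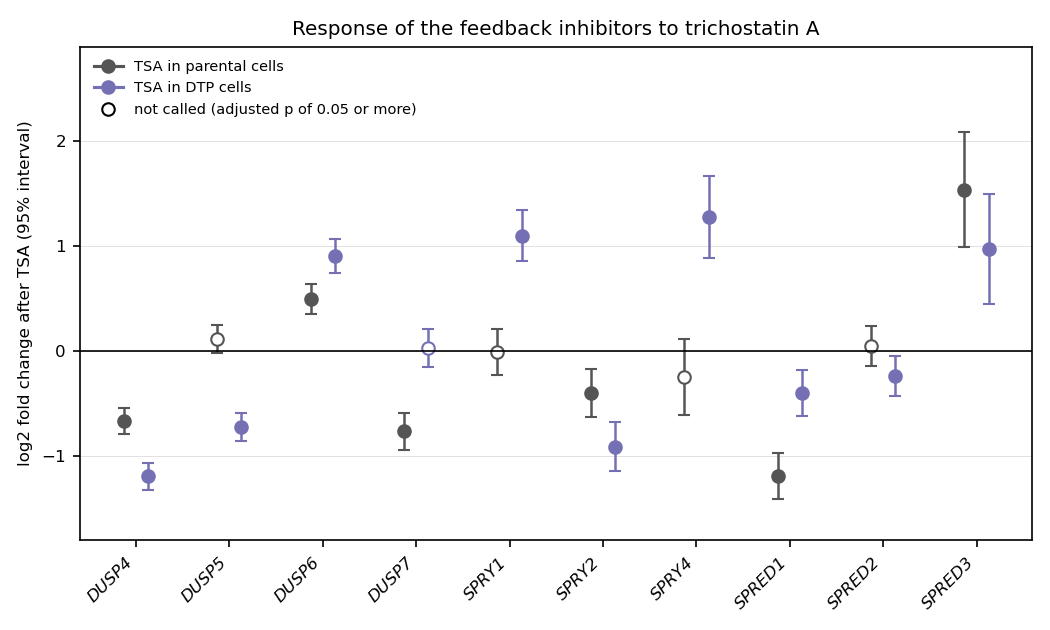
Log2 fold change of each member after TSA in parental cells (grey) and in DTP cells (purple), with 95% intervals over all 18 libraries; open symbols missed the threshold. SPRY4 and SPRY1 have 1.28 and 1.10 in DTP cells against -0.25 and -0.01 in parental cells, and DUSP4, DUSP6, SPRY2, SPRED1 and SPRED3 have the same sign in both.

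The difference between both TSA effects was itself tested, as an interaction term. It passed for 8 members, 3 of them lower and 5 higher in persisters, where 23.0% of all genes were called lower and 15.3% higher. SPRY4 differed by 1.53 ± 0.25 on the log2 scale (adjusted p = 1.77e-04) and SPRY1 by 1.11 ± 0.15 (adjusted p = 3.57e-05). DUSP7 differed by 0.79 ± 0.12 (adjusted p = 6.19e-05). For DUSP5 the difference was -0.84 ± 0.09 (adjusted p = 1.73e-06), and for SPRED2 and SPRED3 it was not called (-0.28, interval -0.55 to -0.02, and -0.57, interval -1.32 to 0.18). Without DTP_TSA a, SPRY4 differed by 1.14, SPRY1 by 1.24, DUSP7 by 0.75 and DUSP5 by -0.87. Without replicate a of both TSA groups these were 1.07, 1.23, 0.85 and -0.78, and SPRED2 was called (-0.19, adjusted p = 0.0148), as it was without DTP_TSA b (-0.38, adjusted p = 0.0265). With the 4 groups alone, the difference of SPRY2 was not called (adjusted p = 0.0694). With spike-in scaling and DTP_TSA a left out, 5 members passed, 1 lower and 4 higher, and the differences of DUSP4, DUSP6 and SPRY2 no longer did (adjusted p = 0.405, 0.179 and 0.125).

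Genes most like 1 member of each family were named by the Pearson correlation of log2 CPM over the 18 libraries, among 10785 genes. The libraries form 6 groups, so r mainly follows 6 group levels, and it is given as a description. For DUSP6 these were SPDL1 (r = 0.988), MAP7D3, SMU1, GRPEL1 and OTUB2, and 2 of the 5 stayed in the list without DTP_TSA a. For SPRY4 they were SPDL1 (r = 0.983), CTNNAL1, CCNF, INPP1 and PLK3, of which 3 stayed. For SPRED1 they were C3orf52 (r = 0.988), CLSPN, CD274, XPO6 and DESI1, of which 4 stayed. SPDL1, a mitotic protein, went from 109 CPM in parental_DMSO to 28.3 at 24 hours and 48.1 in DTP. CD274, which encodes the immune checkpoint ligand PD-L1, went from 42.9 CPM to 5.50 and 32.8, against 48.9, 5.34 and 33.8 CPM for SPRED1.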

How the data were processed

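Polyadenylated RNA of 18 PC9 libraries, with ERCC spike-in RNA added by cell number per the labels' protocols, was quantified by the authors with Salmon, per the submitters' processing notes. The deposited gene and ERCC tables hold expected counts, not scaled between libraries; the sources used here give neither the genome build, nor the annotation, nor the use of strand. Both tables hold 3 further columns each, which name no sample of the series and were left out. Groups came from the sample titles. Symbols were matched for 27814 of 30727 identifiers, and identifiers without a symbol took 0.247% of reads.

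Expected counts were rounded. Genes were kept by edgeR's filterByExpr (17641 genes) and scaled by TMM, and edgeR 4.0.16 (limma 3.58.1, R 4.3.3) fitted 1 quasi-likelihood model over the 18 libraries, using 1 coefficient for each group; this left 12 residual degrees of freedom, and the biological coefficient of variation was 0.136. Benjamini-Hochberg adjustment ran over all genes within each of 7 contrasts, with 0.05 as the threshold. SEs were derived from the quasi-likelihood F test, as the absolute log2 fold change over the square root of F. The 95% intervals were built from these SEs. CPM use TMM-scaled library sizes, and CPM per kb divides by the longest GENCODE v29 transcript. The share of loss regained is the rise from 24 hours to DTP over the drop from parental_DMSO to 24 hours, on group mean CPM. Likeness used log2 CPM with a prior count of 2 and genes with at least 10 CPM in the highest group. Non-member genes were named by rule: per list and comparison, up to 3 called genes with the smallest p among those that reached 10 CPM in either group, and EGFR always; 1 gene that the rule names is not reported here. Genes of these lists named by the rule for carboplatin and TSA are not reported here, since their counts are not given there.

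The members and lists were chosen with earlier results of these data known. Alternatives were DESeq2 1.42.0, its size factors in edgeR, spike-ins as library sizes with all libraries or without DTP_TSA a, the replicate letter as a block, no filter, at least 1 CPM in 3 libraries, the compared groups alone, both TSA groups without replicate a, and each library left out. No pair of replicates held identical values, and all differed by more than sampling noise (chi-square per degree of freedom at least 3.60). Simulated counts served to check the test, and matplotlib 3.10.9 drew the figures.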

Additional observations from a re-analysis of the deposited data

Results flagged for a closer look

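The response to TSA differed between persisters and parental cells, by the test of the difference itself, for 8 of the 10 members. Among all 17641 genes, the same test called 23.0% lower and 15.3% higher in persisters. The log2 difference, as the TSA effect in DTP minus that in parental cells, was higher in persisters for SPRY4 (1.53), SPRY1 (1.11), DUSP7 (0.79), SPRED1 (0.79) and DUSP6 (0.41), and lower for DUSP5 (-0.84), DUSP4 (-0.52) and SPRY2 (-0.51). All DTP_TSA libraries of SPRY4 and SPRY1 lay above all DTP libraries, while SPRY1 in parental_TSA overlapped with parental_DMSO and SPRY4 lay below it. DTP_TSA a, with 99.9 spike-in reads per 100 gene reads and 32139343 gene reads, had the highest SPRY4 (20.3 CPM) and SPRY2 (16.6 CPM) and the lowest SPRY1 (4.36 CPM) of its group. Without it the 8 differences were 1.14, 1.24, 0.75, 0.89, 0.39, -0.87, -0.48 and -0.71 in the same order of genes, and all 8 still passed.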

How the results depend on the processing

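Each of the 70 pairs of member and comparison was recomputed under 27 alternatives, 1890 values in all. Direction and call were the same in 1781, 68 lost the call, 21 gained it and 20 changed sign. With spike-ins as library sizes in all libraries, the spread set by DTP_TSA a left 3 members called at 24 hours and 0 in the other 6 comparisons, with 419 genes called at 24 hours, 288 in DTP against parental_DMSO, 90 in DTP against erlotinib_24h, 75 for carboplatin, 26 for TSA in parental cells, 29 for TSA in DTP and 0 for the difference in TSA effects. With that library left out, spike-in scaling gave 5 members and 2734 genes for the difference in TSA effects. Leaving out each library in turn gave 9 to 10 members at 24 hours, 10 to 10 in DTP against parental_DMSO, 9 to 9 in DTP against erlotinib_24h, 5 to 7 for carboplatin, 6 to 7 for TSA in parental cells, 8 to 9 for TSA in DTP and 8 to 9 for the difference. Over all genes, these fits called 11488 to 13450, 9468 to 11788 and 8742 to 11340 in the erlotinib comparisons, in that order. For carboplatin they called 9384 to 11939 genes and for TSA in parental cells 9167 to 11780. For TSA in DTP they called 8964 to 11319 genes and for the difference 5748 to 7850.

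All 20 changes of sign were in the carboplatin and TSA comparisons. Under carboplatin, spike-in scaling with and without DTP_TSA a gave 0.21 and 0.21 for DUSP4, 0.0039 and 0.0033 for SPRY1, 0.63 and 0.62 for SPRY4 and 0.62 and 0.62 for SPRED1, and the filter of 1 CPM gave 0.0029 for SPRY4. For TSA in parental cells SPRY1 had 0.0011 and 0.0014 with spike-in scaling, 0.024 with the 1 CPM filter, 0.016 without parental_DMSO a and 0.00061 without parental_TSA c, with -0.040 to 0.016 over all libraries left out in turn. For TSA in DTP, DUSP7 had -0.45 with spike-in scaling of all libraries, -0.0014 without the filter, -0.017 without DTP_TSA a and -0.017 without replicate a of both TSA groups, with -0.017 to 0.068 over all libraries left out in turn, and SPRED2 had 0.043 with spike-in scaling and DTP_TSA a left out. For the difference in TSA effects DUSP6 had -0.052 with spike-in scaling of all libraries. Apart from the spike-in scales, whose construction shifts all genes, the cause of these changes was not tested.

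Replicate letters did not pair the libraries: correlations of deviations from the group means between same-lettered libraries ran from -0.050 to 0.088. With the letter as a block, 9, 10, 9, 6, 6, 9 and 8 members were called in the 7 comparisons in the order above, with 12147, 10300, 9652, 10272, 10139, 9758 and 6641 genes, and no member's call changed. DUSP6 at 24 hours rested on 41 to 58 reads and SPRED3 in parental_DMSO on 57 to 66, which limits the precision of their fold changes.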
